A study of Mus musculus with 38 samples.

Results

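The libraries described here were 8 of the 38 samples of the series. They were bulk RNA-seq libraries of neuronal nuclei from adult mice in which loxP sites flank Trim28, and the members were taken by their deposited labels. The labels gave 4 libraries as control (control-797, control-798, control-799 and control-822, the numbers being those of the labels) and 4 as KO (KO-794, KO-795, KO-796 and KO-823). Where 4 values of a group are given they stand in this order. Both groups carried floxed alleles and both received AAV5 vectors into the forebrain, one for Cre and one for nuclear GFP, driven by the neuronal Synapsin promoter, so the controls carried the vectors too. The study describes the control mice as Trim28-flox(+/-) and the KO mice as Trim28-flox(+/+). About 2 months after injection GFP+ nuclei were sorted, so RNA was read from nuclei and not whole cells, and the sort selected for the GFP vector, which need not mean that a nucleus had also received Cre. The age of the mice is not given more closely than adult, and the labels do not say whether each library is 1 animal, so p-values measure the spread between these libraries.

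Trim28, also called KAP1, is a corepressor without DNA binding of its own. It is brought to DNA by KRAB zinc-finger proteins and gathers SETDB1, which writes H3K9me3, and HP1 proteins, which bind that mark. It is known for silencing of endogenous retroviruses (ERVs) and other transposable elements (TEs), for keeping imprints with ZFP57, and for silencing of single genes, among them germline genes. Neurons of the adult brain no longer divide, and the comparison asks what the removal of Trim28 changes in such cells.

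The level of Trim28 itself ran against the deposited labels in each of the 8 libraries. Trim28 (ENSMUSG00000005566.14, chromosome 7, 12999114 to 13031035, forward strand, GRCm38.p6) was at 28.1 CPM (counts scaled to a common library size) in library control-797, at 25.7 in control-798, at 31.6 in control-799 and at 28.1 in control-822, all labelled control. In the libraries labelled KO it was at 130.6 CPM in KO-794, at 146.4 in KO-795, at 136.2 in KO-796 and at 130.7 in KO-823. The groups did not overlap, and the lowest library labelled KO stood 4.13-fold above the highest library labelled control. The means were 28.4 ± 2.46 CPM (SD, n = 4) and 136.0 ± 7.41 CPM (SD, n = 4), so that the libraries labelled control held 20.9% of the level of those labelled KO (exact two-sided permutation test, p = 0.0286, the smallest that 4 against 4 can give). Fitted by edgeR's quasi-likelihood method, the log2 fold change (labelled KO minus labelled control) came to 2.26 with a standard error (SE) of 0.102 and a Benjamini-Hochberg adjusted p of 2.7e-06. Leaving out any one of the libraries kept it between 2.21 and 2.32. Why the level and the labels run opposite was not tested. The labels were kept throughout, every difference below is labelled KO minus labelled control, and "lower in the libraries labelled KO" therefore means lower where Trim28 was high.

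A short stretch inside the gene differed more than the gene as a whole. The SINE copy B1_Mus2_dup26123 (chr7:13028202-13028307) lies within an exon of a Trim28 transcript, on the opposite strand, and took 0, 0, 0 and 1 uniquely mapped counts in the libraries labelled control. It took 38, 26, 34 and 13 counts in those labelled KO. All libraries labelled KO lay above all libraries labelled control. By edgeR the copy passed the test across TE copies only with the library numbers as a block (adjusted p = 5.4e-05, edgeR; 0.0735 without the block). DESeq2 called it without the block (adjusted p = 3.8e-05).

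**Figure D1:**
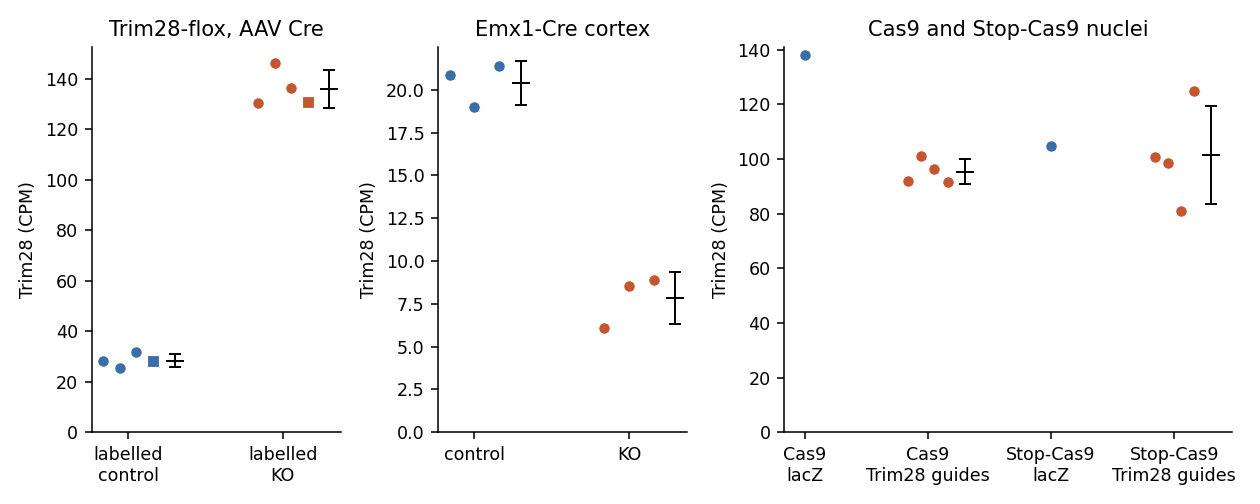
Trim28 in CPM for each library (points; squares are control-822 and KO-823) with the group mean and SD (bars) in the Trim28-flox nuclei, the Emx1-Cre cortex and the Cas9 and Stop-Cas9 nuclei, each on its own axis from 0. In the Trim28-flox nuclei the 4 libraries labelled control sit between 25.7 and 31.6 CPM and the 4 labelled KO between 130.6 and 146.4 CPM, the opposite order to the Emx1-Cre cortex.

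The libraries held between 17256362 and 24212358 gene counts. Libraries control-822 and KO-823 stood apart from the other 6 on the first principal component, which carried 45.7% of the variance of the 500 most variable genes (35.5 and 31.0 against -17.4 to -3.0), and their deviations from the group means correlated across genes (r = 0.583). There was 1 such library in each group, and what the number series stands for is not stated. Xist was high in library control-797 (6322 CPM) and library KO-795 (5312 CPM) and at most 2.18 CPM in the other 6, so that each group held 1 Xist-high library. The summed level of the 15 neuronal markers was 3428 ± 188 CPM (SD, n = 4) in the libraries labelled control and 3612 ± 113 CPM (SD, n = 4) in those labelled KO, and that of the 16 striatal projection neuron markers was 9275 ± 382 and 9259 ± 1020 CPM. Among the defining microglial markers Trem2 was at 0 in all 8 libraries and Cx3cr1 at 0.51 CPM at most. The 9 lists of cell type markers had no member past the test, and no summed level passed an exact two-sided permutation test (lowest p = 0.0571, Benjamini-Hochberg adjusted p = 0.514, microglial markers at 85.7 ± 3.69 against 77.6 ± 4.03 CPM; SD, n = 4 each). The level of Slc17a7, a marker of cortical excitatory neurons, ran from 4.61 CPM in library control-799 to 229.3 CPM in library KO-796, with libraries of both labels at either end.

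Few genes differed between the groups. Of 17102 genes with enough counts, edgeR called 7, which is 0.0409% of the genes tested. A call needed a change of more than 0.5 on the log2 scale, up or down, together with an adjusted p below 0.05. Of these, 5 were lower and 2 higher in the libraries labelled KO, and the groups did not overlap for any of the 7. At an unadjusted p under 0.05 there were 810 genes. Of all genes tested, 294 (1.72%) had all libraries labelled KO below all libraries labelled control and 283 (1.65%) had them above. With the number series (control-822 and KO-823 against the other 6) as a block, 20 genes were called (0.117%), 15 lower and 5 higher, among them all 7. DESeq2 called 38 (0.222%), 25 lower and 13 higher, among them all 20. In bulk nuclei fewer cells that use a gene and less RNA per cell cannot be told apart.

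Nup62cl had the largest log2 fold change of the genes tested. It is an X-linked gene named for its likeness to the carboxyl end of a nuclear pore protein (X, 140006805 to 140062712, reverse strand). Its level was 10.6 CPM in library control-797, 8.34 in control-798, 8.81 in control-799 and 8.96 in control-822, and it was listed at 0 in KO-794, KO-796 and KO-823 and at 0.0556 CPM, 1 count, in KO-795. The libraries labelled control held 745 counts in all and those labelled KO 1, a ratio of 721 after library size (95% counting interval 129 to 28500). The mean of the libraries labelled control was 9.18 ± 0.983 CPM (SD, n = 4), and the groups lay far apart. The fitted log2 fold change was -8.90 (SE 0.467, adjusted p = 7.2e-06, edgeR), and the gene was called in each of the 8 fits that leave out a library. Library control-797 is Xist-high and the other 3 labelled control are not, and their levels of this X-linked gene lay within 8.34 and 10.6 CPM.

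Mkrn3 was the only imprinted gene called. It encodes a RING finger protein, is expressed from the paternal copy and is known as a brake on the onset of puberty (chromosome 7, 62417593 to 62420139, reverse strand). It was at 4.47, 4.20, 5.89 and 5.96 CPM in the libraries labelled control, and at 0.111, 0.278, 0.192 and 0.0475 CPM in those labelled KO. Counts numbered 412 and 12, a ratio of 33.2 (95% counting interval 18.8 to 64.8). The log2 fold change was -4.99 (SE 0.405, adjusted p = 0.00036, edgeR), and the call held with each library left out. Of the 43 imprinted genes tested no other was called by edgeR, with or without the block, or by DESeq2. Their median log2 fold change was -0.01, beside 0.01 over all genes tested, and 1 of them (2.33%), Mkrn3, had groups that did not overlap with the libraries labelled KO lower. Ndn and Magel2, which lie in the same imprinted region as Mkrn3, had log2 fold changes of 0.18 (SE 0.176) and -0.16 (SE 0.313). Peg3, another paternally expressed gene, was at 0.18 (SE 0.12) and Kcnq1ot1, the antisense RNA of the Kcnq1 region, at -0.38 (SE 0.159, adjusted p = 0.971, edgeR).

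Germline genes supplied 1 called gene and 2 more under the block. Theg, a gene of haploid male germ cells (chromosome 10, 79576379 to 79587331, reverse strand), was at 63.6 CPM in library control-797, 89.6 in control-798, 108.0 in control-799 and 66.8 in control-822. It was at 10.7, 9.84, 9.18 and 11.3 CPM in those labelled KO. The means were 82.0 ± 20.9 and 10.3 ± 0.944 CPM (SD, n = 4 each), a 7.99-fold difference, and the log2 fold change was -3.00 (SE 0.182, adjusted p = 2.3e-05, edgeR), called in all 8 fits that leave out a library. All libraries labelled control were thus above all those labelled KO, yet Theg was not silent where Trim28 was high.

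Tcfl5 and Sohlh1, helix-loop-helix transcription factors of germ cells, showed the same direction with smaller differences. Tcfl5 was at 10.9, 14.3, 16.1 and 14.6 CPM in the libraries labelled control, and at 3.28, 3.84, 1.88 and 7.08 CPM in those labelled KO. Its log2 fold change was -1.79 (SE 0.334, adjusted p = 0.182; with the block -1.89, adjusted p = 0.0223, edgeR). Sohlh1 was at 16.0, 10.1, 11.1 and 14.7 CPM and at 5.78, 5.00, 3.94 and 5.66 CPM, a log2 fold change of -1.35 (SE 0.208, adjusted p = 0.0634; with the block 0.0223, edgeR). Neither pair of groups overlapped. Of the 40 germline genes listed, 22 had enough counts to be tested, and 3 of these (13.6%) had groups that did not overlap with the libraries labelled KO lower, where 1.72% of all genes did. Their median log2 fold change was -0.19, and 15 of 22 lay below 0, beside 48.5% of all genes tested. The list was written with earlier results of these data known and holds Theg, Tcfl5 and Sohlh1, so these shares are a description only. Piwil4, of the piRNA pathway that silences transposons in germ cells, was at -0.67 (SE 0.319), and Dazl and Ddx4, RNA-binding proteins of germ cells, were at -0.18 and 0.21, with no call.

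The start regions of 4 genes that were lower in the libraries labelled KO are shown as examples chosen after their values were seen, Nup62cl and Mkrn3 for the largest differences of called protein-coding genes and Tcfl5 and Sohlh1 for the germline list. Each window runs from 250 bases before to 50 bases after the start of the RefSeq transcript, is read from 5' to 3' on the gene's own strand in GRCm38.p6, and has CG dinucleotides, the sites of DNA methylation, in capitals. The windows lie at chrX:140062519-140062818 (Nup62cl), chr7:62420104-62420403 (Mkrn3), chr2:180642642-180642941 (Tcfl5) and chr2:25847199-25847498 (Sohlh1), all on the reverse strand.
Nup62cl: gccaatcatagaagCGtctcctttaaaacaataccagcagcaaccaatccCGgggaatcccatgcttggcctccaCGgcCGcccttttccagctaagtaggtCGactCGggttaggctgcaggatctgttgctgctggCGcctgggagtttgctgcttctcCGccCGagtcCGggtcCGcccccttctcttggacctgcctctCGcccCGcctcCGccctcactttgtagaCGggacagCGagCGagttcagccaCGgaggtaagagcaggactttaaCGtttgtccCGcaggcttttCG
Mkrn3: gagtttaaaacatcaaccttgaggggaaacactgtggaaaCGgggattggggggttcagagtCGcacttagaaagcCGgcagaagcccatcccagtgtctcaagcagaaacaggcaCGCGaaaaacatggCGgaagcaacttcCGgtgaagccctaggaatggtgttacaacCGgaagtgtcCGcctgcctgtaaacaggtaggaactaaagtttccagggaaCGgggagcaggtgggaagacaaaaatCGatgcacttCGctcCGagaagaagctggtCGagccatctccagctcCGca
Tcfl5: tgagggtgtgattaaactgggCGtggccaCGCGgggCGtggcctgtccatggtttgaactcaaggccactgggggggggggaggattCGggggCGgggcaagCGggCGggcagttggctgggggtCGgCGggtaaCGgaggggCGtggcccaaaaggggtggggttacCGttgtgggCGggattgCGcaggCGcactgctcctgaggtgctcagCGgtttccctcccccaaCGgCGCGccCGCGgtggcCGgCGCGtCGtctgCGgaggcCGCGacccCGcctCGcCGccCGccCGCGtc
Sohlh1: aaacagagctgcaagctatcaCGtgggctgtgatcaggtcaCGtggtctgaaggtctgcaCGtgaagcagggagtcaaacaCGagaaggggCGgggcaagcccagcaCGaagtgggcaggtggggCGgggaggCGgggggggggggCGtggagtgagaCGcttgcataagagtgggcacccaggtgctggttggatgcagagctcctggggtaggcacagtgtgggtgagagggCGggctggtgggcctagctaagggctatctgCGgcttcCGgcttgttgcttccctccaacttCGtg
The window of Nup62cl held 21 CG, that of Mkrn3 15, that of Tcfl5 35 and that of Sohlh1 14, beside a median of 7 over 32851 windows of mouse genes. As many as in Tcfl5 or more were found in 6.95% of all windows, and as many as in Sohlh1 or more in 36.3%. The palindrome CACGTG, an E-box, stood 3 times in the Sohlh1 window and in none of the other 3, and 0.0883% of all windows held 3 or more and 7.15% held any. The letters TGCCGC, the core of the ZFP57 site, searched on both strands, were in none of the 4 windows and in 11.6% of all. Of the 20 genes called with or without the block, 15 had a window in the RefSeq table (the other 5 were Theg, Fancd2, Jam3, Asl and E230025N22Rik), and of their 18 windows 2 held CACGTG (those of Sohlh1 and Tmc8) and 3 held TGCCGC (that of Trim28 and both of Vegfa).

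Fancd2, which acts in the Fanconi anaemia pathway of DNA crosslink repair (chromosome 6, 113531682 to 113597017, forward strand), was at 60.9, 62.8, 54.3 and 51.1 CPM in the libraries labelled control and at 24.0, 18.2, 26.6 and 19.9 CPM in those labelled KO. The log2 fold change was -1.37 (SE 0.139, adjusted p = 0.0029, edgeR), and the call held with each library left out. Its end overlaps Fancd2os on the opposite strand, which was at 5.15 ± 2.16 and 1.63 ± 0.636 CPM (SD, n = 4 each) and passed the test with DESeq2 only (adjusted p = 0.0121; edgeR 0.506). Gm3772, a long intergenic RNA on chromosome 13, was at 1.36, 1.96, 1.28 and 2.84 CPM against 0.167, 0, 0.0481 and 0.143 CPM in the same order of libraries. Its 144 and 7 counts gave a ratio of 19.9 (95% counting interval 9.42 to 50.4), with an adjusted p of 0.0416 (edgeR), and the call was lost in every fit that leaves out a library.

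Besides Trim28, 1 gene was higher in the libraries labelled KO. Vegfa, the main growth factor of blood vessels (chromosome 17), was at 64.2, 68.4, 81.2 and 60.6 CPM in the libraries labelled control and at 132.5, 143.1, 111.2 and 124.8 CPM in those labelled KO. The groups did not overlap, and the log2 fold change was 0.90 (SE 0.12, adjusted p = 0.0342, edgeR). The call held in 2 of the 8 fits that leave out a library, and with the block the adjusted p was 0.0084. The summed level of 13 vascular and meningeal markers was 11.3 ± 2.37 and 11.5 ± 0.883 CPM (SD, n = 4 each), and the part of such cells in the level of Vegfa was not tested beyond that.

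**Figure D2:**
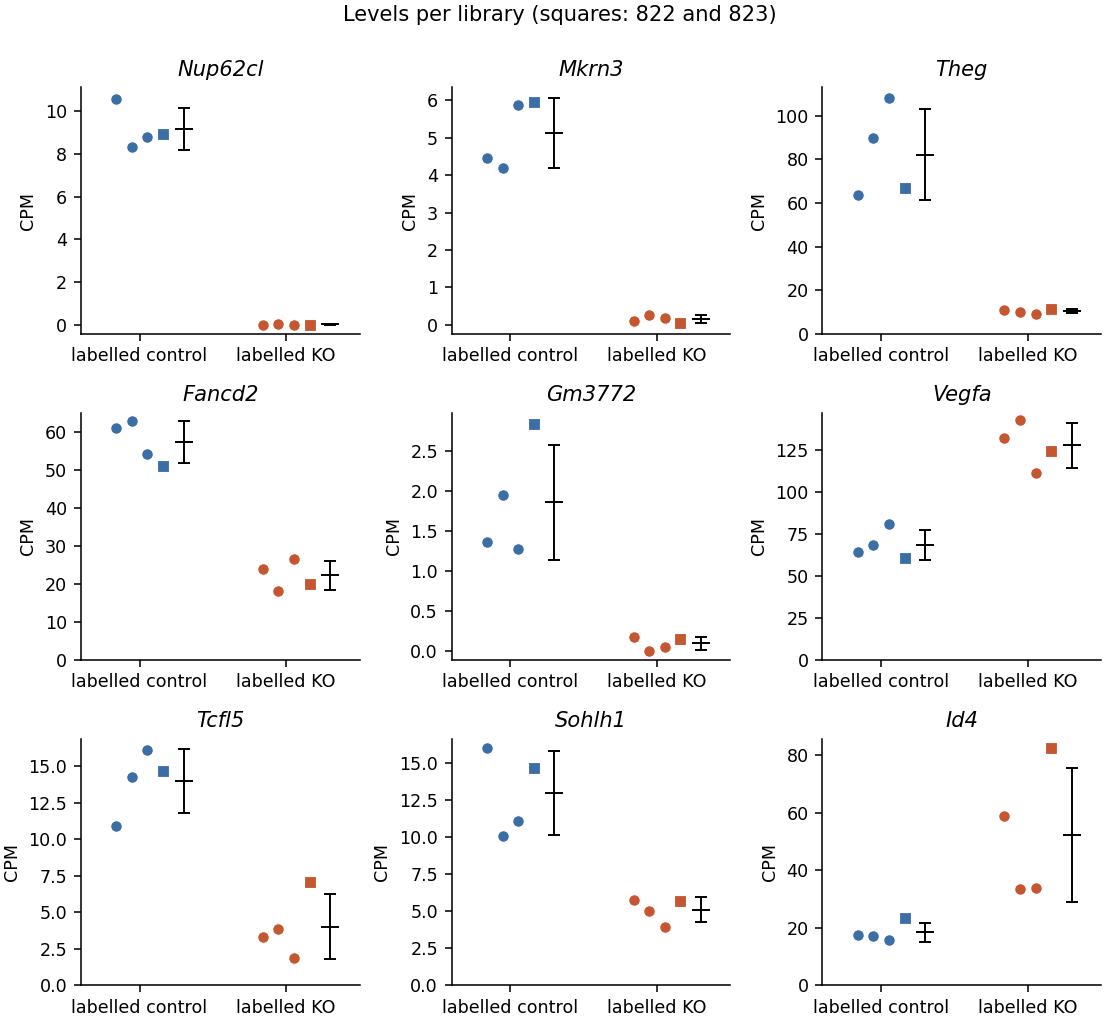
CPM of 9 genes in each library (points; squares are control-822 and KO-823) with the group mean and SD (bars), by deposited label. Nup62cl, Mkrn3 and Gm3772 are near 0 in the libraries labelled KO, and no pair of groups overlaps in any panel.

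The block added 13 genes, named after their values were seen. Of these, 10 were lower in the libraries labelled KO and 3 higher, and none had overlapping groups. Beside Tcfl5 and Sohlh1, the lower ones were the neighbouring olfactory receptor genes Olfr1347 and Olfr1349, Tmc8, E230025N22Rik, 1700001O22Rik, Jam3 (a junctional adhesion molecule), Drc1 (of the dynein regulatory complex of motile cilia) and Asl (argininosuccinate lyase of the urea cycle). Olfr1347 was at 1.75, 1.09, 0.593 and 1.25 CPM in the libraries labelled control and at 0.167, 0.111, 0.0961 and 0.0475 CPM in those labelled KO, and Olfr1349 was at 2.33 ± 0.736 against 0.316 ± 0.137 CPM (SD, n = 4 each). Olfr5, which DESeq2 alone called (adjusted p = 0.0096), lies beside them on chromosome 7. Olfr5 spans 6478322 to 6486941, Olfr1347 6486944 to 6499755 and Olfr1349 6513269 to 6522950. Reads of near-identical family members may be shared or lost among them. Jam3 was at 113.9 ± 7.71 against 69.7 ± 7.10 CPM, Drc1 at 105.6 ± 19.6 against 65.2 ± 2.38 CPM and Asl at 94.0 ± 11.6 against 58.7 ± 3.37 CPM (SD, n = 4 each). Of the 25 olfactory and vomeronasal receptors with enough counts, of 1981 listed, 4 had groups that did not overlap with the libraries labelled KO lower, beside 1.72% of all genes, and the median log2 fold change of the 25 was 0.02. Olfr1347, Olfr1349 and Olfr5, near the floor in the libraries labelled KO, had enough counts through the libraries labelled control. Their part of the 4 was thus shaped by the count filter, and the share is not read as a result about receptors.

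The 3 higher ones were Id4, Cdkn1a and Itga9. Id4, an inhibitor of helix-loop-helix factors that responds to BMP signals, was at 17.4, 17.2, 15.6 and 23.4 CPM in the libraries labelled control and at 58.8, 33.6, 33.9 and 82.3 CPM in those labelled KO. Its log2 fold change with the block was 1.45 (SE 0.183, adjusted p = 0.0116; without the block 0.18, edgeR). Cdkn1a, the cell cycle inhibitor p21, was at 2.17, 2.76, 2.19 and 2.16 CPM and at 5.50, 4.62, 6.34 and 5.94 CPM (log2 fold change with the block 1.27, adjusted p = 0.0385, edgeR). Itga9, an integrin subunit, was at 20.3 ± 1.80 against 39.7 ± 8.93 CPM (SD, n = 4 each; adjusted p with the block 0.0223, edgeR).

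**Figure D3:**
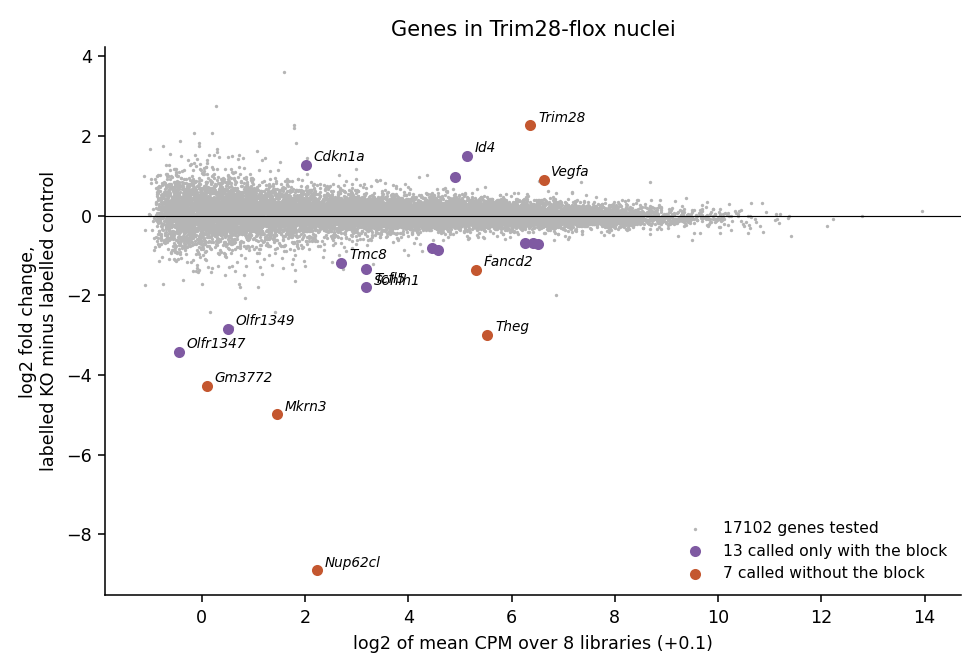
Log2 fold change (labelled KO minus labelled control) of 17102 genes against the log2 of their mean CPM. The 7 genes called without the block and the 13 called only with it are coloured, and among the 7 Nup62cl at -8.90, Mkrn3 at -4.99, Gm3772 at -4.27 and Theg at -3.00 lie farthest below 0.

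The pathway around Trim28 showed no call other than Trim28 itself. Of its 26 partners tested (Trim28 included), some of which write or bind H3K9me3 or guide it to DNA, the median log2 fold change was 0.02. Setdb1, the methyltransferase it recruits, was at 330.4 CPM on average of the libraries labelled control, with a log2 fold change of -0.12 (SE 0.163). Trim24, a TRIM family relative, was at 69.4 to 77.6 CPM in the libraries labelled control and 54.2 to 61.4 CPM in those labelled KO, which did not overlap (log2 fold change -0.34, adjusted p = 0.819, edgeR). Atf7ip, the partner that stabilises SETDB1, was at 63.1 to 73.8 against 79.8 to 85.8 CPM, without overlap and without a call (0.29, adjusted p = 0.971, edgeR). Zfp57, the guide to imprints, had a log2 fold change of 0.68 (SE 0.224) with overlapping groups. Of 25 heterochromatin and DNA methylation factors none was called (median 0.02), and of 355 zinc-finger genes tested edgeR called none and DESeq2 1, Zfp110 (log2 fold change -0.55, adjusted p = 0.0069).

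Signalling and neuronal gene groups had few calls. Of 29 BMP and TGF-beta signalling genes 21 lay above 0, with a median of 0.19. Over all 17102 genes tested 8807 lay above 0, and the median was 0.01. Beside Id4, Bmp7 had groups that did not overlap (0.978 to 2.15 CPM in the libraries labelled control, 3.17 to 4.42 CPM in those labelled KO) but no call (log2 fold change 1.15, adjusted p = 0.716, edgeR). Ltbp2, which shapes the matrix that holds TGF-beta family ligands, was lower by DESeq2 alone (-1.26, adjusted p = 0.0067). Ltbp2 and Tgfb3 (15.2 to 25.1 against 14.6 to 15.1 CPM) did not overlap in the lower direction. Groups without overlap thus numbered 2 of 29 in each direction, beside 1.65% of all genes higher and 1.72% lower. Of 46 neurotransmitter receptor genes 38 lay above 0 and 8 below, with a median of 0.19 where the median over all genes was 0.01. No receptor gene was called by edgeR, 4 did not overlap (Grin3a, Gabra5, Htr4 and Tacr1, all higher in the libraries labelled KO), and DESeq2 called Tacr1 (0.67, adjusted p = 0.0128), the receptor of substance P. These were 4 of 46, beside 1.65% of all genes without overlap in that direction. Of 15 p53 and DNA damage response genes Cdkn1a was the only one called under the block, where 0.117% of all genes were called. Cdkn1a and Trp53inp1 (4.95 to 7.38 against 7.67 to 9.61 CPM, no call) did not overlap, both higher in the libraries labelled KO. These were 2 of 15, beside 1.65% of all genes in that direction. Clustered protocadherins (45 tested, median -0.08), interferon-stimulated genes (14 tested, median -0.04), nucleic acid sensors (12 tested, median -0.00), activity-induced genes (24 tested, median 0.09) and synaptic adhesion genes (38 tested, median 0.05) had no call by edgeR with or without the block. DESeq2 called 1 synaptic adhesion gene, Lrrtm2 (0.66, adjusted p = 0.0127).

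Genes near Trim28 on chromosome 7 were examined because a floxed allele travels with its neighbours from the strain in which it was made. Within 10 Mb of the start of Trim28, 204 genes were tested and edgeR called 0 (11 of 204 genes at that distance had groups that did not overlap, 5.39%, beside 3.37% of all genes). Under the block 2 were called there, Olfr1347 and Olfr1349, 0.98% beside 0.111% of all genes. DESeq2 called 5 (2.45% beside 0.216%), which were these receptors with Olfr5, Gm45844 and Zfp110. Zfp110 lies 0.164 Mb from Trim28 and was at 32.5 ± 3.10 against 22.2 ± 1.62 CPM (SD, n = 4 each), Olfr1347 and Olfr1349 lie about 6.5 Mb away, and Mkrn3 lies on the same chromosome outside this range. Differences in strain around the gene cannot be told apart from the label here.

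No TE subfamily passed the test between the groups. Of 885 tested, edgeR called 0 (0%), 26 had an unadjusted p under 0.05, and DESeq2 also called 0 (24 at an unadjusted p under 0.05). Levels of subfamilies are CPM of all TE counts. MMERVK10C-int, the internal part of an ERVK element that is a common target of Trim28, was at 2400, 2093, 2484 and 1729 CPM in the libraries labelled control and at 2503, 2064, 2332 and 1828 CPM in those labelled KO. The libraries overlapped throughout, and the log2 fold change was 0.00 (SE 0.147). IAPEz-int, the internal part of the intracisternal A particle, was at 0.16 (SE 0.251), ETnERV-int at 0.13 (SE 0.158), MMVL30-int at 0.12 (SE 0.161) and MERVL-int at 0.02 (SE 0.296). IAP-d-int had groups that did not overlap (197 to 243 CPM in the libraries labelled control, 145 to 183 CPM in those labelled KO) without a call (-0.33, SE 0.14). Of the 30 listed subfamilies that could be tested none was called, and their median was -0.02.

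LINE-1 subfamilies and B2_Mm1a lay slightly below 0. L1Md_T was at 22080 to 29450 CPM in the libraries labelled control and at 16040 to 21610 CPM in those labelled KO, which did not overlap (log2 fold change -0.37, SE 0.133), and L1Md_A and L1Md_F2 were at -0.38 (SE 0.147) and -0.27 (SE 0.112). B2_Mm1a was at 15420 to 16710 against 10050 to 15040 CPM (-0.37, SE 0.126). None of these passed the test. Of the 123 subfamilies of the L1 family, 102 lay below 0 (median -0.10), while ERV1 had 29 of 87 below 0 (median 0.08) and ERVK 117 of 259 (median 0.02). Over all 885 subfamilies the median was 0.00, and subfamilies that share multimapped reads are not independent of each other. Per library, L1 made up 1.71 ± 0.58% of gene plus TE counts in the libraries labelled control, with control-822 highest at 2.575%. In those labelled KO it made up 1.53 ± 0.329% (SD, n = 4 each; exact two-sided permutation test, p = 0.543). Of all subfamilies 10 (1.13%) did not overlap with the libraries labelled KO lower, and 3 of these were L1. RLTR6-int, an ERV1 element, was called under the block only (-0.997, adjusted p = 0.0067, edgeR). It was at 2113, 1271, 1292 and 603.9 CPM in the libraries labelled control and at 708.0, 763.4, 760.0 and 355.0 CPM in those labelled KO, so that the groups overlapped through control-822 alone. TE counts were 7.09 ± 1.37% of gene plus TE counts in the libraries labelled control and 7 ± 0.422% in those labelled KO (SD, n = 4 each; exact two-sided permutation test, p = 1), library control-822 being highest at 9.15%.

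Single TE copies with uniquely mapped reads showed a few large differences. Of 46564 copies tested, edgeR called 3 (0.00644%), all lower in the libraries labelled KO and all SINEs between genes. They are shown because they are the complete set of called copies; letters are from GRCm38.p6, read on the strand of the copy, and capitals mark the longest run that all 3 share, 11 bases that start at base 11.
B2_Mm2_dup57102: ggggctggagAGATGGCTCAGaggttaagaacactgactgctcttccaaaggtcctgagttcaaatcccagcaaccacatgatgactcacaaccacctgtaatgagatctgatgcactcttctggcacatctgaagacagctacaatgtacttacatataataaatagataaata
B2_Mm1t_dup19503: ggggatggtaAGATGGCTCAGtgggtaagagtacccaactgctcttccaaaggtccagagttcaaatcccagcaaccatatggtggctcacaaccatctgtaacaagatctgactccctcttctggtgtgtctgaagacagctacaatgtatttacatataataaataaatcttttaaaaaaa
B3_dup71023: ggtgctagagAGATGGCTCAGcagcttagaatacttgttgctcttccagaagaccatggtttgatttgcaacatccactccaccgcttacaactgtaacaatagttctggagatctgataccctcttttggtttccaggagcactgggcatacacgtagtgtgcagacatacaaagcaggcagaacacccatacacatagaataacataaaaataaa
B2_Mm2_dup57102 (chr10:127314951-127315125, reverse strand, 0.803 kb from Gm6283) had 69, 71, 60 and 60 counts in the libraries labelled control and 0, 0, 0 and 2 in those labelled KO. B2_Mm1t_dup19503 (chr15:41991768-41991950, reverse strand, 39.4 kb from Gm5470) had 61, 50, 55 and 57 counts against 0, 2, 0 and 0. B3_dup71023 (chr8:124444571-124444787, reverse strand, 4.91 kb from Pgbd5) had 52, 43, 70 and 134 counts against 0, 1, 2 and 1. The adjusted p was 0.0362 for each (edgeR), and each call was lost in the 6 fits that leave out 1 of the other 6 libraries, whereas it held without control-822 and without KO-823.

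With the block 42 copies were called (0.0902%), 41 of them lower in the libraries labelled KO, and the 1 higher copy was that inside Trim28. They are described after their values were seen. Places, distances and subfamilies were not counted over all 46564 copies tested, so the counts below have no share to set beside them. By place, 23 lay between genes, 14 in introns and 5 in exons, and 9 of the 42 lay in or within 10 kb of one of the 7 called genes. Theg had 6 of these 9, from an intron and an exon to 1.38 kb beyond its start. The copy MLT1L_dup936 (chr10:79587410-79587542), 0.079 kb from Theg, was at 6.47, 9.66, 8.63 and 3.57 CPM in the libraries labelled control and at 1.39, 0.723, 1.15 and 0.856 CPM in those labelled KO. PB1D10_dup38325, in an exon of Nup62cl on the opposite strand, had 54, 19, 29 and 40 counts against 0 in each library labelled KO, so its reads moved as those of the gene. On chromosome 8 B3_dup71023 had 3 close neighbours among the 42, and on chromosome 15 a stretch from 15741436 to 15868372 held 5 of the 42. RLTR6-int_dup939 (chr11:121311593-121317617, 1.70 kb from Foxk2) was at 38.6, 9.20, 11.6 and 7.20 CPM against 0.556, 1.56, 0.481 and 0.190 CPM, and L1Md_F2 gave 7 of the 42, all within genes. Of these 7, L1Md_F2_dup40251, L1Md_F2_dup52285, L1Md_F2_dup50912 and L1Md_F2_dup54166 had overlapping groups, and DESeq2 called L1Md_F2_dup7189 alone.

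Full-length MMERVK10C elements, so named by the study, gave no call, and those tested ran from 1894 to 8447 bases. Of 309 elements 12 had enough unique counts, and edgeR called 0 (0%), with 2 at an unadjusted p under 0.05. The summed level of all 309 elements was 70.0 ± 10.3 CPM in the libraries labelled control and 76.6 ± 14.8 CPM in those labelled KO (SD, n = 4 each; exact two-sided permutation test, p = 0.514). The element with most counts, MMERVK10C-int_dup1646 (chr9:4259518-4266935), ran from 2.70 CPM in library control-798 to 34.9 CPM in library KO-794 with overlapping groups. MMERVK10C-int_dup2481 (chr12:70183634-70190146, overlapping an exon of Abhd12b) was at 16.5, 18.2, 13.1 and 19.2 CPM in the libraries labelled control and at 11.6, 7.01, 12.5 and 7.66 CPM in those labelled KO (log2 fold change -0.79, adjusted p = 0.137, edgeR).

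The Emx1-Cre cortex, in which Cre is active in the dividing progenitors of the cortex, was compared to show where the Trim28-flox nuclei differ. There 3 KO libraries were set against 3 controls, from cortex tissue of mice 3 months old. The study's methods give Emx1-Cre(+/-) in both groups and Trim28-flox(+/+) against Trim28-flox(+/-), while a figure legend of the study calls the controls Cre-negative. Tissue against sorted nuclei and region against region cannot be told apart from the time of deletion. In that cortex Trim28 followed its labels (18.98 to 21.4 CPM in the controls, 6.08 to 8.88 CPM in the KO libraries, log2 fold change -1.39, adjusted p = 0.00038, edgeR), and 216 of 16271 genes were called (1.33%). Mkrn3 rose there from 0.489 to 0.667 CPM in the controls to 7.08 to 9.83 CPM in the KO libraries (3.88, adjusted p = 1.7e-06), Tcfl5 from at most 1.20 to at least 13.2 CPM (4.29, adjusted p = 2.7e-06) and Nup62cl from at most 0.363 to at least 1.74 CPM (2.83, adjusted p = 0.00052), all by edgeR. Theg stayed at 0.163 to 0.489 CPM and Gm3772 at 0.207 CPM or less in all 6 cortex libraries, and neither was tested there.

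Genes that were higher in the KO cortex tended to be lower in the Trim28-flox libraries labelled KO, as a description without a test. Of 96 such genes tested in both, 12 had flox groups that did not overlap with the libraries labelled KO lower (1.72% of all genes did) and 0 with them higher (1.65% of all genes), 76 lay below 0, and their median was -0.28. Of 51 genes lower in the KO cortex, 6 did not overlap with the libraries labelled KO higher and 0 with them lower, beside the same shares of all genes, with a median of 0.27. The 12 were Nup62cl, Mkrn3, Tcfl5, Gm13016, Zfp981, Pcdhgb4, Gm3604, Klhdc4, Asl, Drc1, Epha10 and Zfp110. Nup62cl, Mkrn3, Gm13016 and Pcdhgb4, at 0.78 CPM or less in every library labelled KO, had enough counts through the libraries labelled control. Their part of the 12 was thus shaped by the count filter, and the share is not read as a result about such genes. The 6 were Trim28, Eps8l1, Lgr6, Npy1r, Pds5b and 6330403K07Rik. A fit over both experiments tested the difference between the log2 fold changes and called 60 of 19062 genes (0.315%), 45 of them below 0, with the flox labels as deposited. With the flox difference taken the other way, labelled control minus labelled KO, it called 7 (0.0367%): Nup62cl, Theg, Cdkn1a, Nat8f2, Cers3, Wwox and Myoc. The log2 fold changes of Nup62cl and Theg then stood above those in the cortex by 6.08 and 3.12 (adjusted p = 0.0016 and 0.0326, edgeR). The differences for Mkrn3, 1.17 (adjusted p = 1), and Tcfl5, -2.44 (adjusted p = 0.179), did not pass.

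**Figure D4:**
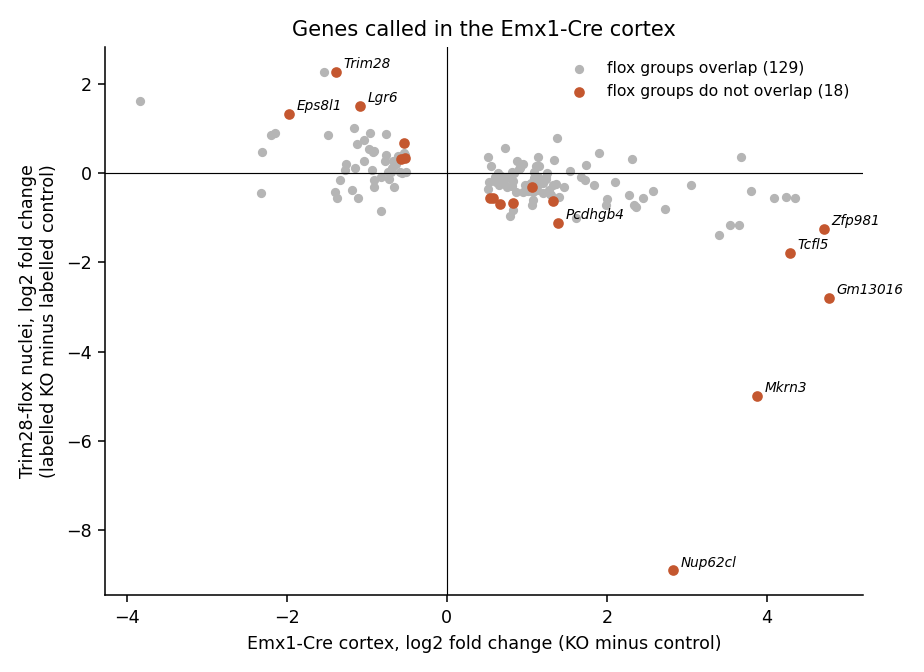
Log2 fold change in the Trim28-flox nuclei (labelled KO minus labelled control) against that in the Emx1-Cre cortex (KO minus control) for the 147 genes called in the cortex and tested in both. The 18 genes whose flox groups do not overlap are coloured, with 12 at lower right and 6 at upper left.

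The log2 fold changes of some TE subfamilies differed between the experiments in either direction of the flox labels. MMERVK10C-int rose in the KO cortex by 2.90 on the log2 scale (SE 0.0606) and IAP1-MM_I-int by 4.93 (SE 0.181), while in the Trim28-flox nuclei they were at 0.00 (SE 0.147) and 0.03 (SE 0.234). The fit over both experiments called 16 of 946 subfamilies with the labels as deposited (1.69%) and 16 with the flox difference the other way (1.69%), 14 of them in both. For all of them the log2 fold change was lower in the Trim28-flox nuclei than in the cortex, and levels were not compared. For MMERVK10C-int the difference was -2.89 (SE 0.182) as deposited and -2.93 (SE 0.182) the other way, and for RLTR10C, an ERVK long terminal repeat, -1.91 and -1.82. IAP-d-int, IAPLTR4, IAPLTR3-int and RLTR46A were also among the 14.

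**Figure D5:**
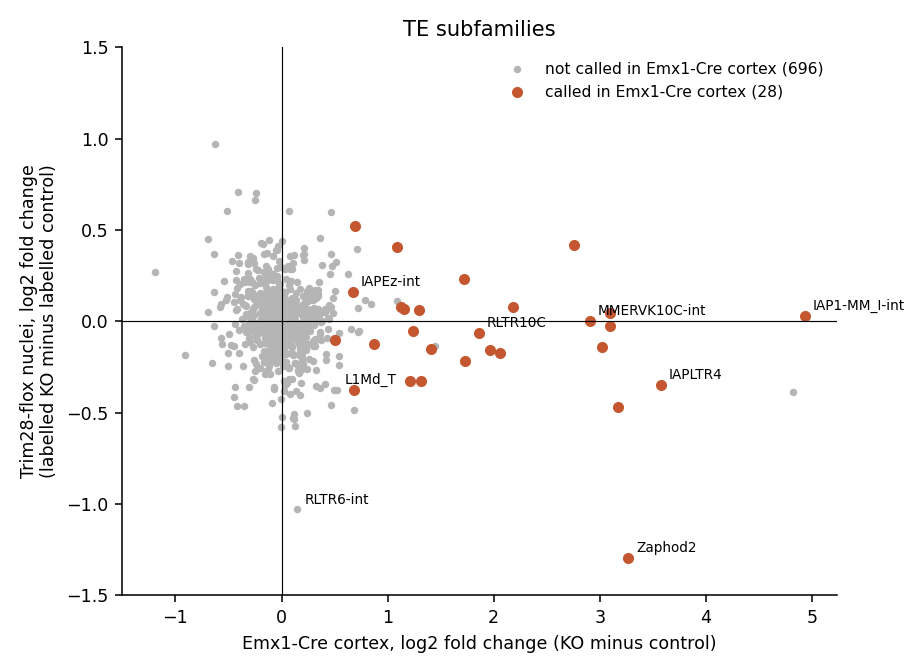
Log2 fold change of 724 TE subfamilies in the Trim28-flox nuclei (labelled KO minus labelled control) against that in the Emx1-Cre cortex. The 28 subfamilies called in the cortex reach 4.93 on the horizontal axis, while MMERVK10C-int lies at 0.00 on the vertical axis.

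In the Cas9 and Stop-Cas9 nuclei, sorted neurons in which Trim28 was targeted with guides and Cas9 in place of floxed alleles, the same genes were looked up. In the Stop-Cas9 mice Cre was delivered too, to switch on Cas9. That comparison had 8 libraries with Trim28 guides and 2 with a lacZ guide, 1 control for each strain. Fancd2 was the 1 gene called of 17384 (0.00575%; 1108 at an unadjusted p under 0.05), higher with Trim28 guides (log2 fold change 1.77, SE 0.23, adjusted p = 0.0099, edgeR). It was at 10.7 and 13.3 CPM in the lacZ libraries, 24.1 to 44.9 CPM with guides in Cas9 nuclei and 45.6 to 59.4 CPM in Stop-Cas9 nuclei. Nup62cl was listed at 0 in both lacZ libraries and at 0.692 to 7.35 CPM with guides, and Theg at 2.33 and 4.28 CPM against 2.85 to 20.5 CPM, without a call. Trim28 RNA stayed at 81.1 to 125.0 CPM with guides beside 138.0 and 104.7 CPM with lacZ (log2 fold change -0.30, adjusted p = 0.795, edgeR).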

How the data were processed

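Nuclei of Trim28-flox mice were profiled by stranded poly-A RNA-seq. Per the labels and the study's methods, the authors mapped reads with STAR 2.6.0 to GRCm38.p6 and deposited whole-number counts: featureCounts (Subread 1.6.3) counts of uniquely mapped reads for 55298 genes, 3494634 TE copies and 309 full-length MMERVK10C elements, counted by strand, and TEtranscripts counts with multimapped reads for 1153 subfamilies. Of the TE copy table, 6 columns matched no sample and were not used. Gene IDs were matched to symbols for 98.4%.

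Groups followed the deposited labels. Counts were filtered with filterByExpr (minimum count 10), scaled by TMM and tested with edgeR 4.0.16 in R 4.3.3 (quasi-likelihood F test, 8 libraries, no covariate, Benjamini-Hochberg), with DESeq2 1.42.0 and limma 3.58.1 as alternatives. TE copies and full-length elements used the gene library sizes, and subfamilies those of TE counts. CPM was computed here from the deposited counts. Intervals (95%) cover counting error only. The scripts were tested on simulated counts. Reads from near-identical copies can be lost or shared.

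The members and gene lists were chosen with earlier results of these data known. Named were Trim28, the called genes without overlap (10 largest changes and 5 smallest p per direction), called list members, listed TE subfamilies, the 5 largest called copies per direction and the 3 full-length elements with most counts. Genes and copies beyond this rule were named after their values were seen.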

Additional observations from a re-analysis of the deposited data

Results flagged for a closer look

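Of 52 groups of 4 libraries examined for a library far from the other 3, 4 had one, where chance gives about 1 in 20. Nup62cl had 0.05561 CPM (1 count) in library KO-795 and 0 in the other 3 labelled KO. Library control-822 stood apart in its TE share (9.145% of gene plus TE counts) and in the summed level of interneuron markers (947.8 CPM), and library KO-823 had the lowest RLTR6-int level of its group (355.0 CPM).

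The other results were listed because the Trim28-flox difference and the Emx1-Cre difference were unequal in a fit over both experiments (edgeR, adjusted p). With the flox labels as deposited, flox minus Emx1-Cre was 3.702 on the log2 scale for Trim28 (7.8e-09), -11.62 for Nup62cl (8.2e-09), -8.818 for Mkrn3 (8.2e-09) and -6.461 for Gm3772 (0.0177). For Theg it was -2.892 (0.0231), for Fancd2 -1.389 (0.0181) and for Vegfa 0.9965 (0.0302), while MMERVK10C-int was at -2.887 (2.6e-08) and RLTR10C at -1.908 (0.00069). With the flox difference taken the other way, Nup62cl was at 6.079 (0.0016), Theg at 3.118 (0.0326), MMERVK10C-int at -2.928 (2.1e-08) and RLTR10C at -1.819 (0.0014). Tissue, region and nuclei differ between the experiments and cannot be told apart from the time of deletion.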

How the results depend on the processing

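The number of flox genes called (7 by edgeR) was 20 with the number series as a block, 38 with DESeq2, 69 with DESeq2 and the block, 19 without the count filter, 11 on the TEtranscripts gene counts and 5 to 8 with 1 library left out. TE subfamilies (0) numbered 1 with the block, 3 without control-822 and KO-823 and 0 with any library left out. TE copies (3) numbered 42 with the block, 29 with DESeq2, 29 without control-822 and KO-823, 0 without any 1 of the other 6, 9 without control-822 and 10 without KO-823. Genes unequal between flox and Emx1-Cre as labelled (60) numbered 166 with DESeq2 and 30 to 109 with 1 library left out: 109 without control-822, 30, 39 and 31 without each Emx1-Cre control, and 35 without 1 Emx1-Cre KO library. With the flox difference the other way (7) they numbered 42 with DESeq2 and 3 to 12 (12 without KO-796, and 4, 3 and 3 without 1 Emx1-Cre control and 2 Emx1-Cre KO libraries). TE subfamilies (16 each) numbered 14 to 25 as labelled (25 without KO-823) and 15 to 21 the other way. The TE share difference was uncalled and changed sign, to 0.346 percentage points with unique reads, 0.445 without control-822 and KO-823, 0.603 without control-822, 0.0203 without KO-794 and 0.0495 without KO-795 (range -0.325 to 0.603). Within 5, 10 and 20 Mb of Trim28 DESeq2 called 1, 5 and 5 genes and the block 0, 2 and 2 (edgeR 0). The cause of these shifts was not tested, save that fits without a library hold fewer samples. Trim28 was called in every alternative, as were Nup62cl, Mkrn3, Theg and Fancd2, and Gm3772 and Vegfa lost their call in 9 and 7 of 16. Chosen after seeing the data were DESeq2 with the block, limma voom, leaving out control-822 and KO-823 for TEs and the block for distance. No paired analysis was possible because the libraries of the groups share no replicate numbers.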
